A study of Mus musculus with 26 samples.

Results

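The genes of the Hippo pathway and of its transcriptional output were followed through the RNA-seq libraries of 4T1 cells with and without MaTAR25, a nuclear long noncoding RNA of mouse mammary tumors. The 10 genes were listed by name: the coactivators Yap1 and Wwtr1 (which encodes TAZ), the DNA-binding partners Tead1 and Tead4, the kinases Lats1 and Lats2, and the target genes Ctgf (Ccn2 in current nomenclature), Cyr61 (Ccn1), Ankrd1 and Amotl2. They are 10 of the 45318 genes in the count files, and all 10 were among the 15023 genes that passed the filter on low counts. The groups were 2 libraries of control cells (genotype wild type), 3 of MaTAR25 KO1 and 4 of MaTAR25 KO2 (genotype MaTAR25-/-), all from the BALB/c mammary carcinoma line 4T1 grown in the same serum-containing medium. KO1 and KO2 are clones in which CRISPR/Cas9 with pairs of guides deleted sequence over the MaTAR25 start site, and the control cells carried a guide against Renilla luciferase, so each knockout group is 1 clone. The sources do not say whether the libraries of a group came from separate cultures, so p-values measure the spread between these libraries, which may be technical. In the control libraries 35 and 30 reads fell on MaTAR25 (1200007C13Rik). The KO1 libraries had 2, 7 and 0 reads and the KO2 libraries 11, 1, 9 and 6, all below the controls (edgeR, log2 fold change of KO against control -2.63, standard error 0.82, adjusted p = 0.0561).

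In the Hippo pathway the kinases Stk3 and Stk4, with the scaffold Sav1, activate Lats1 and Lats2, whose cofactors are Mob1a and Mob1b. The LATS kinases phosphorylate YAP and TAZ, which keeps them out of the nucleus and promotes their degradation. Unphosphorylated YAP and TAZ enter the nucleus, bind TEAD proteins and switch on growth and matrix genes, and Lats2 and Amotl2 are themselves among the genes they induce, which closes a negative feedback loop. YAP and TAZ are well known for their part in breast cancer growth and spread. Since the pathway acts mostly through phosphorylation and localization, RNA levels measure how much message of each component was present and not how active the pathway was.

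The depth of the 9 libraries ran from 25367211 to 61110585 reads counted on genes, and 33.9 to 37.0% of reads were assigned to no gene. Levels are given as CPM, the reads of a gene scaled to a common library total, after TMM scaling of library sizes. The 6 epithelial markers listed (Epcam, Cdh1, Krt8, Krt18, Krt19 and Krt7) were all at 1 CPM or more in every library, and their summed level was 3719 to 3902 CPM in control, 5053 to 7330 in KO1 and 2194 to 4532 in KO2. None of the 6 immune or 4 endothelial markers reached 1 CPM in every library, 1 of the 6 fibroblast markers did (Col3a1 and Dcn were at 0 throughout), and 1 of the 4 myoepithelial markers did (Krt5 was at 0 throughout). Summed fibroblast markers were at 20.4 to 25.9 CPM in control, 21.6 to 40.6 in KO1 and 11.8 to 47.6 in KO2. In the same order, immune markers were at 4.97 to 5.49, 1.00 to 2.90 and 1.67 to 9.63 CPM. Myoepithelial markers were at 6.72 to 8.85, 6.71 to 17.3 and 1.28 to 8.32 CPM, and endothelial markers reached at most 1.69 CPM, in KO2. Correlations of log2 levels over all tested genes were 0.996 between the controls, 0.987 to 0.991 within KO1 and 0.960 to 0.979 within KO2. The 4 KO2 libraries were thus less alike than those of the other groups.

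TEAD proteins recognise the letters GGAATG, and the sequences just upstream of the genes were searched for them because Ctgf, Cyr61, Ankrd1 and Amotl2 are known as direct targets. RefSeq promoter entries (GRCm38.p6) were found for 7 of the 10 genes, and not for Tead1, Tead4 and Ctgf. Within 250 bases upstream of the start, GGAATG or its complement CATTCC was present at 5 of the 7, namely Yap1, Wwtr1, Cyr61, Ankrd1 and Amotl2. Lats1 and Lats2 lacked these letters in their windows. Of all 32851 windows of this length in the table, 12.6% held the letters on either strand. The AP-1 letters TGACTCA, of a factor that often binds beside TEAD and which share no overlap with the TEAD letters, were in none of the 7 and in 4.46% of all windows. The full windows of Cyr61, a target gene, and Wwtr1, a coactivator gene, are shown as the letters stand in their surroundings, each on the gene's strand (minus for both) with the TEAD letters in capitals, at chr3:145649986-145650235 for Cyr61 and chr3:57575911-57576160 for Wwtr1.
Cyr61: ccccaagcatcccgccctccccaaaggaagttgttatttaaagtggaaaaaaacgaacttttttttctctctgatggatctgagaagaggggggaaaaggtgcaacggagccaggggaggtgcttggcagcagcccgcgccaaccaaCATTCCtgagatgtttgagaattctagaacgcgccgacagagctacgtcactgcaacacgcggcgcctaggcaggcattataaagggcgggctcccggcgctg
Wwtr1: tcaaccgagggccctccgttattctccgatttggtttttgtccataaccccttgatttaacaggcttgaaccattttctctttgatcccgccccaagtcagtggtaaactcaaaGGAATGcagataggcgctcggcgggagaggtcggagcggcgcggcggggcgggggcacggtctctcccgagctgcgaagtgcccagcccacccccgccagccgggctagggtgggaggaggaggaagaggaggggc
The match began 103 bases upstream of the start in Cyr61 and 136 bases upstream in Wwtr1. Ankrd1 was the only one of the 7 with 2 matches, 210 and 123 bases upstream, and for it and the remaining genes the 30 bases around each match are given, so that the flanks can be compared.
Ankrd1, distal (minus strand, chr19:36120037-36120066): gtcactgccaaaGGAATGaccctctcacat
Ankrd1, proximal (minus strand, chr19:36119950-36119979): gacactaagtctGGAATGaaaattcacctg
Yap1 (minus strand, chr9:8004720-8004749): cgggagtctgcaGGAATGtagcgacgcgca
Amotl2 (plus strand, chr9:102717727-102717756): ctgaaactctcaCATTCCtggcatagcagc
The match lay 141 bases upstream in Yap1 and 65 bases upstream in Amotl2. These are matches of letters, and binding of TEAD was not measured here.

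Read per kilobase of exon (GENCODE vM21), which allows levels of different genes to be compared, the matrix gene Cyr61 and the cardiac-type ankyrin repeat gene Ankrd1 were the most abundant of the 10 in control cells, at means of 100.8 and 81.2 CPM per kb. Their control libraries overlapped, so the order of these 2 genes is not resolved. Wwtr1 followed at 53.3 CPM per kb, above Ctgf at 35.4, Lats1 at 31.6 and Amotl2 at 30.3, of which Ctgf and Lats1 overlapped. Tead1 and Yap1 stood at 19.0 and 17.1 CPM per kb with overlapping libraries, and Tead4 and Lats2 were lowest at 11.7 and 9.38. TAZ message was therefore above YAP message per kilobase in both control libraries, and Lats1 above Lats2. Among the other core genes, levels in control cells ran from 3.67 CPM per kb for Tead3 to 62.1 for Amotl1.

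**Figure D1:**
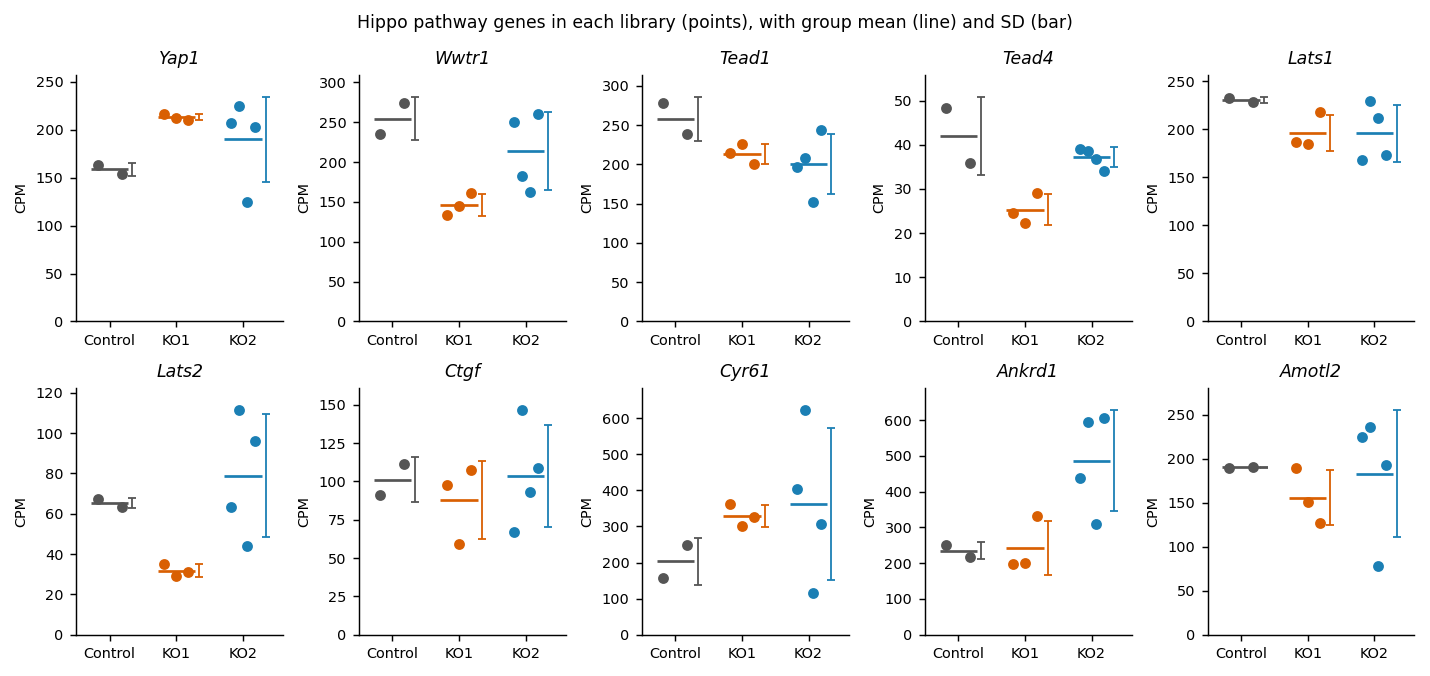
Levels of the 10 Hippo pathway genes in every library, in CPM on axes that start at 0 (points: libraries; line: group mean; bar: SD). Wwtr1, Tead4 and Lats2 are lower in the KO1 libraries than in control, Ankrd1 is higher in the KO2 libraries than in control, and KO2 replicate 3 lies at 125 CPM for Yap1 and 78.7 CPM for Amotl2, below the other KO2 libraries.

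Pooling both clones against control asked which of the 10 genes differed in level between KO and control cells, and none was called. The 7 KO libraries are treated as replicates here although they come from only the KO1 and KO2 clones, so differences between the clones enter the spread. The quasi-likelihood test of edgeR, adjusted over all genes by the Benjamini-Hochberg method, called 0 of 10 at an adjusted p under 0.1, against 22.6% of all genes tested. No member passed at an unadjusted p under 0.05 either, and DESeq2 also called 0. The fold changes ran from -0.46 (Wwtr1) to 0.77 (Cyr61) on the log2 scale, with a median of -0.15 beside 0.06 over all genes, and 7 of 10 lay below 0. In none of the 10 did the 7 KO libraries stand apart from the 2 controls, whereas 34.4% of all tested genes showed no overlap. A two-sided exact permutation test of each gene (36 arrangements of the labels), whose smallest possible p is 0.0278, gave its lowest value for Yap1 (p = 0.0833). Fitting the clones as separate groups and contrasting their mean with control called Wwtr1 (log2 fold change -0.52, edgeR adjusted p = 0.0672) and Tead4 (-0.45, adjusted p = 0.0725). Leaving out KO2 replicate 3 called Yap1 (0.42, adjusted p = 0.0478) and Cyr61 (0.92, adjusted p = 0.0883). Without control replicate 2, KO did not overlap with control for 3 genes, without KO2 replicate 3 for 2, and for 1 each without control replicate 1, KO2 replicate 2 or KO2 replicate 4. The share over all genes was not computed for these settings. The 34.4% cannot stand beside them, since groups separate more easily with a library left out.

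The clones were then compared with control separately, in a fit of 3 groups. Both comparisons use the same 2 control libraries. In KO1, 3 of the 10 genes were lower (Wwtr1, Tead4 and Lats2) and 0 higher, beside 15.7% of all genes called lower and 31.6% called in either direction. Over both directions the share of the members was thus near that of all genes. In KO2, 1 gene was higher (Ankrd1) and 0 lower, beside 16.5% of all genes called higher and 31.4% in either direction. For 8 of 10 genes the KO1 libraries did not overlap the controls, 2 higher and 6 lower, where 66.9% of all genes showed no overlap (33.2% higher, 33.7% lower). In KO2 this held for 1 gene of 10, which was higher, where 46.9% of all genes showed it and 22.8% did so by being higher. Over the members, log2 fold changes had a median of -0.25 in KO1 beside 0.02 over all genes, and of -0.01 in KO2 beside 0.03.

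**Figure D2:**
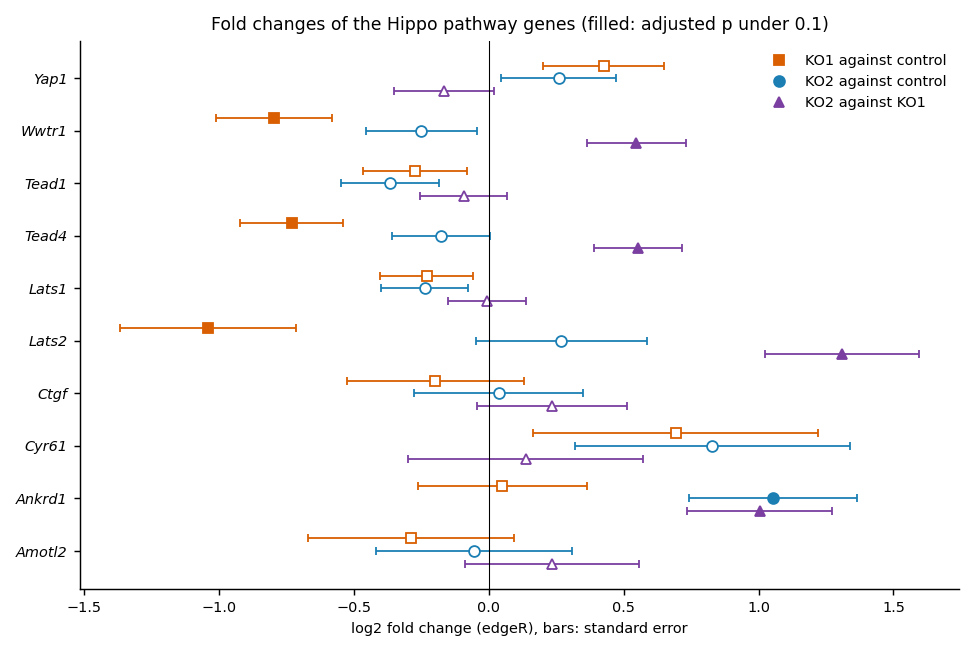
Log2 fold changes of the 10 genes by edgeR (x axis; bars: standard error), for KO1 against control (squares), KO2 against control (circles) and KO2 against KO1 (triangles), filled where the adjusted p was under 0.1. Wwtr1, Tead4 and Lats2 lie left of 0 in KO1 with filled symbols, and all filled triangles lie right of 0.

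Among the coactivators, the message of TAZ moved in KO1 and that of YAP was not called in either clone. Wwtr1 was at 235 and 274 CPM in the control libraries and at 134, 144 and 161 CPM in KO1. The KO2 libraries had 249.8, 183, 163 and 261 CPM. All KO1 libraries lay below both controls, and 2 of the 4 KO2 libraries lay within the range of the controls and 2 below it. The mean was 255 ± 27.1 CPM (SD, n = 2) in control, 147 ± 13.9 (n = 3) in KO1 and 214 ± 48.5 (n = 4) in KO2. Wwtr1 fell 1.74-fold in KO1 (log2 fold change -0.80, standard error 0.22, edgeR adjusted p = 0.0267), and the value in KO2 was -0.25 (adjusted p = 0.403). The KO1 call was lost without control replicate 1 (adjusted p = 0.112) and without control replicate 2 (adjusted p = 0.193).

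Yap1 stood at 164 and 154 CPM in control and at 216, 212 and 210.2 CPM in KO1. In KO2 it was at 207, 225, 125 and 203 CPM. The KO1 libraries and 3 of the KO2 libraries lay above both controls, and KO2 replicate 3 lay below both. Its log2 fold changes of 0.43 in KO1 (standard error 0.22, edgeR adjusted p = 0.198) and of 0.26 in KO2 (standard error 0.21, adjusted p = 0.406) did not pass. Yap1 shares 116 exonic bases with Gm20416 on the opposite strand, which had 0 to 2 reads per library. Without KO2 replicate 3, which also enters the common estimate of the spread, Yap1 was called in both KO1 (0.42, adjusted p = 0.0324) and, at 0.41, KO2 (adjusted p = 0.0358). In the fit of KO1 and control alone it was also called (0.43, edgeR adjusted p = 0.0140), but so were 7752 of the 14342 genes in that fit.

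The ratio of Wwtr1 to Yap1 CPM, chosen after the values were seen and given without a test, was 1.44 and 1.78 in the control libraries. It was 0.618, 0.679 and 0.768 in KO1 and 1.21, 0.813, 1.30 and 1.28 in KO2. The ratio was lower in every KO library than in either control, and since CPM are not scaled for gene length it can be read between libraries only. Per kilobase, the mean level of Wwtr1 stayed above that of Yap1 in all groups, at 53.3 against 17.1 CPM per kb in control, 30.7 against 23.0 in KO1 and 44.8 against 20.5 in KO2.

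Of the TEAD factors, which anchor YAP and TAZ to DNA, Tead4 was lower in KO1 and Tead1 was not called. Tead4 was at 48.2 and 35.8 CPM in control, at 24.5, 22.4 and 29.1 CPM in KO1 and at 39.0, 38.7, 36.7 and 34.2 CPM in KO2. All KO1 libraries were below both controls, and 3 of the KO2 libraries lay between the controls, which differed more from each other than the KO2 libraries did. Tead4 fell 1.66-fold in KO1 (log2 fold change -0.73, standard error 0.19, edgeR adjusted p = 0.0234). In KO2 the value was -0.18 (adjusted p = 0.505). Without control replicate 1, the higher of the controls, the KO1 value was -0.48 (adjusted p = 0.272), a fold change more than 1.5 times smaller on the log2 scale.

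Tead1, the most abundant TEAD gene per kilobase in control cells, was at 278 and 238 CPM in control. KO1 had 215, 226 and 199.8 CPM, and KO2 had 197, 208, 152 and 244 CPM. All KO1 libraries and 3 of the KO2 libraries lay below both controls. Its log2 fold changes, -0.27 in KO1 (edgeR adjusted p = 0.334) and -0.37 in KO2 (standard error 0.18, adjusted p = 0.174), did not pass, although the KO2 value did without KO2 replicate 4 (-0.47, adjusted p = 0.0769). Tead2 and Tead3 were not called in any comparison. In KO2 replicate 2 Tead3 was at 6.32 CPM and Tead2 at 31.2 CPM, below every other library of the study.

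The LATS kinases, which restrain YAP and TAZ, differed from each other in KO1. Lats2 was at 67.3 and 63.5 CPM in control and at 35.3, 29.0 and 31.0 CPM in KO1, well below both controls. In KO2 it was at 63.6, 111, 44.2 and 96.0 CPM, on both sides of the controls. Lats2 fell 2.06-fold in KO1 (log2 fold change -1.04, standard error 0.33, edgeR adjusted p = 0.0466), and the KO2 value was 0.27 (standard error 0.32, adjusted p = 0.571). The KO1 call was lost without control replicate 1 (adjusted p = 0.213), control replicate 2 (adjusted p = 0.169), KO1 replicate 2 (adjusted p = 0.126) or KO1 replicate 3 (adjusted p = 0.116), while the fold change stayed between -1.12 and -0.98 in all 9 fits that left out a library. Lats2 shares 2955 exonic bases with Gm49361 on the same strand in GENCODE vM21, a gene that the count files do not list.

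Lats1 was at 233 and 229 CPM in control, at 186, 185 and 218 CPM in KO1 and at 168, 229.6, 212 and 173 CPM in KO2. The KO1 libraries all lay below the controls, and KO2 replicate 2 lay between them. The log2 fold changes were -0.23 in KO1 (standard error 0.17, edgeR adjusted p = 0.357) and -0.24 in KO2 (standard error 0.16, adjusted p = 0.315). The ratio of Lats2 to Lats1 CPM, also chosen after the values were seen, was 0.289 and 0.278 in control. It was 0.189, 0.157 and 0.142 in KO1 and 0.378, 0.485, 0.209 and 0.555 in KO2. Lats2 message was thus scarcer relative to Lats1 in every KO1 library than in either control, and in KO2 the ratio was higher in 3 libraries and lower in 1.

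Of the target genes Ctgf, Cyr61, Ankrd1 and Amotl2, only Ankrd1 was called against control, and only in KO2. Whether the target genes differed from each other was not tested. Ankrd1, which encodes a nuclear and sarcomeric ankyrin repeat protein and is a widely used readout of YAP and TAZ, was at 251 and 217 CPM in control. In KO1 it was at 197, 199 and 331 CPM, below and above the controls. In KO2 it was at 437, 593, 310.0 and 606 CPM, all above both controls. The means were 234 ± 23.9 CPM (SD, n = 2) in control, 243 ± 76.6 (n = 3) in KO1 and 487 ± 141 (n = 4) in KO2. Ankrd1 rose 2.08-fold in KO2 (log2 fold change 1.05, standard error 0.31, edgeR adjusted p = 0.0382), whereas the KO1 value was 0.05 (adjusted p = 0.924). The KO2 call was lost without control replicate 1 (1.18, adjusted p = 0.167) and without control replicate 2 (0.96, adjusted p = 0.237).

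Cyr61 and Ctgf encode secreted matricellular proteins of the same family and are the best known YAP and TAZ targets. Cyr61 was at 157 and 249.7 CPM in control and at 361, 300.0 and 325 CPM in KO1. In KO2 it was at 403, 622, 116 and 306 CPM, so that 3 libraries lay above both controls and replicate 3 below both. The log2 fold changes were 0.69 in KO1 (standard error 0.53, edgeR adjusted p = 0.373) and 0.83 in KO2 (standard error 0.51, adjusted p = 0.268), and neither passed. Without KO2 replicate 3 the KO2 value was 1.12 (adjusted p = 0.0290). In the fit of KO1 and control alone, Cyr61 was called in KO1 (0.70, edgeR adjusted p = 0.0306), but so were 7752 of the 14342 genes in that fit.

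Ctgf showed no such separation. It was at 91.0 and 111 CPM in control, at 97.7, 59.3 and 107 CPM in KO1 and at 66.9, 146, 93.2 and 109 CPM in KO2. The groups overlapped on both sides. Its log2 fold changes were -0.20 in KO1 (standard error 0.33, edgeR adjusted p = 0.699) and 0.04 in KO2 (standard error 0.31, adjusted p = 0.947), and its sign changed with the library left out in both. Ctgf overlaps Gm15270 on the opposite strand by 665 exonic bases, and that gene had 1 to 12 reads per library.

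Amotl2, an angiomotin family protein that binds YAP and holds it in the cytoplasm, was at 189.7 and 191 CPM in control. In KO1 it was at 189, 151 and 127 CPM, and in KO2 at 225, 237, 78.7 and 193 CPM. The KO1 libraries all lay below the controls, the first of them narrowly, and KO2 replicate 3 was the lowest of the study. The log2 fold changes were -0.29 in KO1 (standard error 0.38, edgeR adjusted p = 0.618) and -0.06 in KO2 (standard error 0.36, adjusted p = 0.930).

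Comparing KO2 with KO1 tested the difference between the clones directly and shares no control library in the contrast. Here 4 of the 10 genes were higher in KO2 and 0 lower, beside 10.2% of all genes called higher and 19.6% called in either direction. Lats2 was 2.48-fold higher in KO2 than in KO1 (log2 fold change 1.31, standard error 0.29, edgeR adjusted p = 0.0226), and every KO2 library lay above every KO1 library. Ankrd1 was 2.01-fold higher (1.00, standard error 0.27, adjusted p = 0.0430), with KO1 replicate 3 at 331 CPM above KO2 replicate 3 at 310.0 CPM. Tead4 (0.55, standard error 0.16, adjusted p = 0.0581) and Wwtr1 (0.55, standard error 0.18, adjusted p = 0.0844) were also higher, both without overlap. In all, 3 of 10 genes showed no overlap of the clones, each higher in KO2, beside 24.5% of all tested genes, or 11.9% counting those higher in KO2.

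Each of these 4 calls was lost without at least 1 library. Lats2 was lost without KO1 replicate 2 (edgeR adjusted p = 0.104), and Ankrd1 without KO1 replicate 1 (adjusted p = 0.149) or KO1 replicate 2 (adjusted p = 0.172). Tead4 was lost without KO1 replicate 1 (adjusted p = 0.165), KO1 replicate 2 (adjusted p = 0.216) or KO2 replicate 1 (adjusted p = 0.102). Wwtr1 was lost without either control (adjusted p = 0.132 and 0.133), KO1 replicate 1 (0.230), KO1 replicate 2 (0.233), KO1 replicate 3 (0.131), KO2 replicate 1 (0.165) or KO2 replicate 4 (0.156). Without KO2 replicate 3, Amotl2 was also called (0.49, adjusted p = 0.0705). All 4 fold changes stayed above 0 throughout.

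Within KO2 the genes of the pathway varied over a wide range. The coefficient of variation over the 4 KO2 libraries had a median of 26.1% for the 10 genes, from 6.03% (Tead4) to 58.2% (Cyr61), beside a median of 26.7% over all tested genes. In KO1 the median was 9.79% for the 10 genes and 15.4% over all genes. KO2 replicate 3 was the lowest of the 4 libraries for 7 of the 10 genes, where it was lowest for 26.0% of all tested genes. KO2 replicate 2 was the highest for 6 of the 10, where it was highest for 28.5% of all tested genes. The 7 genes lowest in replicate 3 were Yap1, Wwtr1, Tead1, Lats2, Cyr61, Ankrd1 and Amotl2, and Ctgf, Tead4 and Lats1 were not. These counts were made after the values were seen and carry no test.

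**Figure D3:**
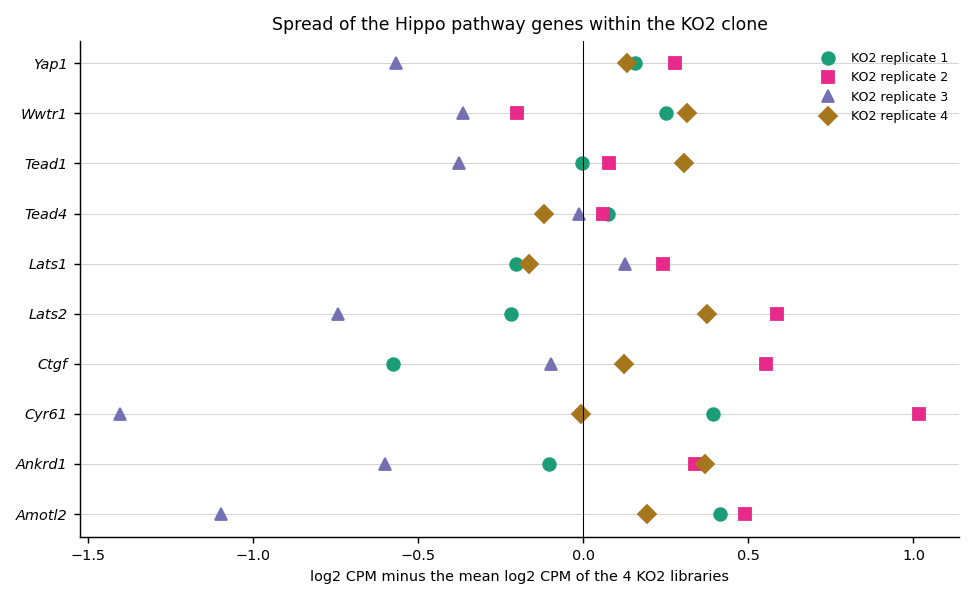
Level of each of the 10 genes in each KO2 library, as log2 CPM minus the mean log2 CPM of the 4 KO2 libraries (x axis). Replicate 3 (triangles) lies furthest left for 7 genes, replicate 2 (squares) furthest right for 6, and Cyr61 has the widest spread.

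The other genes of the pathway comprised 52 listed names, of which 43 were tested: 11 core components, TEADs and angiomotins, 20 of 25 upstream regulators and 12 of 16 further target genes. In KO against control, 8 of the 43 were called, 3 higher and 5 lower, with a median log2 fold change of -0.07, beside 22.6% of all tested genes called. The core held none of them, at 0 of 11 beside the same 22.6% (0 also at an unadjusted p under 0.05), and its fold changes ran from -0.36 (Amotl1) to 0.42 (Nf2) with a median of 0.02. The kinases Stk3 and Stk4 had values of 0.15 and 0.02, the scaffold Sav1 -0.06 and the cofactors Mob1a and Mob1b -0.07 each. Tead2, Tead3 and the TEAD-binding corepressor Vgll4 had values of 0.06, 0.03 and 0.02, and Amot -0.29. Values of the 2 kinases, the scaffold and the 2 cofactors all lay within 0.15 of 0. Stk3 was above both controls in every KO library, as the only 1 of the 11 core genes without overlap, beside 34.4% of all tested genes.

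The upstream regulators gave 5 of 20 calls, 1 higher and 4 lower, a share near the 22.6% of all tested genes. Map4k7 (Tnik), a kinase of the family that can phosphorylate LATS and also a Wnt pathway kinase, was at 44.9 and 47.8 CPM in control and at 3.60 to 18.6 CPM in the KO libraries, with a median of 9.82. It fell 4.74-fold (log2 fold change -2.25, standard error 0.42, edgeR adjusted p = 0.00782). Map4k3, of the same kinase family, went from 108 and 104 CPM in control to 36.1 to 62.5 CPM in KO, with a median of 48.5 (-1.08, standard error 0.19, adjusted p = 0.00567). Frmd6, a FERM domain protein that promotes Hippo signalling from the plasma membrane, went from 152 and 125 CPM to 57.7 to 85.4 CPM, with a median of 67.2 (-1.01, standard error 0.16, adjusted p = 0.00429). In these 3 genes, named for the largest called falls, every KO library of both clones lay below both controls. No overlap of KO and control was seen in 10 of the 43 other listed genes, beside 34.4% of all tested genes. Taok2, a kinase able to activate Stk3 and Stk4, was higher, at 72.3 and 72.1 CPM in control and 81.2 to 112 CPM in KO (0.46, standard error 0.16, adjusted p = 0.0775).

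Of the 12 further targets tested, 2 were higher and 1 was lower, a share again near the 22.6% of all tested genes. Axl, a receptor tyrosine kinase linked to invasion, was at 495 and 383 CPM in control and at 704 to 1346 CPM in KO, with a median of 1055 (log2 fold change 1.29, standard error 0.23, edgeR adjusted p = 0.0070). Arhgef17 was at 59.1 and 55.5 CPM in control and at 67.0 to 128 CPM in KO (0.89, standard error 0.23, adjusted p = 0.0281). Gadd45a, which is also a p53-responsive stress gene, was at 184 and 238 CPM in control and at 8.62 to 49.6 CPM in KO, an 8.95-fold fall (-3.16, standard error 0.46, adjusted p = 0.00317). The targets were thus called in both directions. With control replicate 1 left out 3 of the 8 calls remained (Axl, Gadd45a and Map4k7), and with control replicate 2 left out 4 did (Frmd6, Gadd45a, Map4k3 and Map4k7), while the calls over all genes went from 3392 to 462 and 574. Without control replicate 1 the adjusted p was 0.112 for Frmd6, 0.104 for Map4k3, 0.203 for Arhgef17 and 0.357 for Taok2, and without control replicate 2 it was 0.121 for Axl, 0.240 for Arhgef17 and 0.369 for Taok2. Taok2 was also lost without any of the KO1 libraries (adjusted p = 0.111, 0.113 and 0.116).

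**Figure D4:**
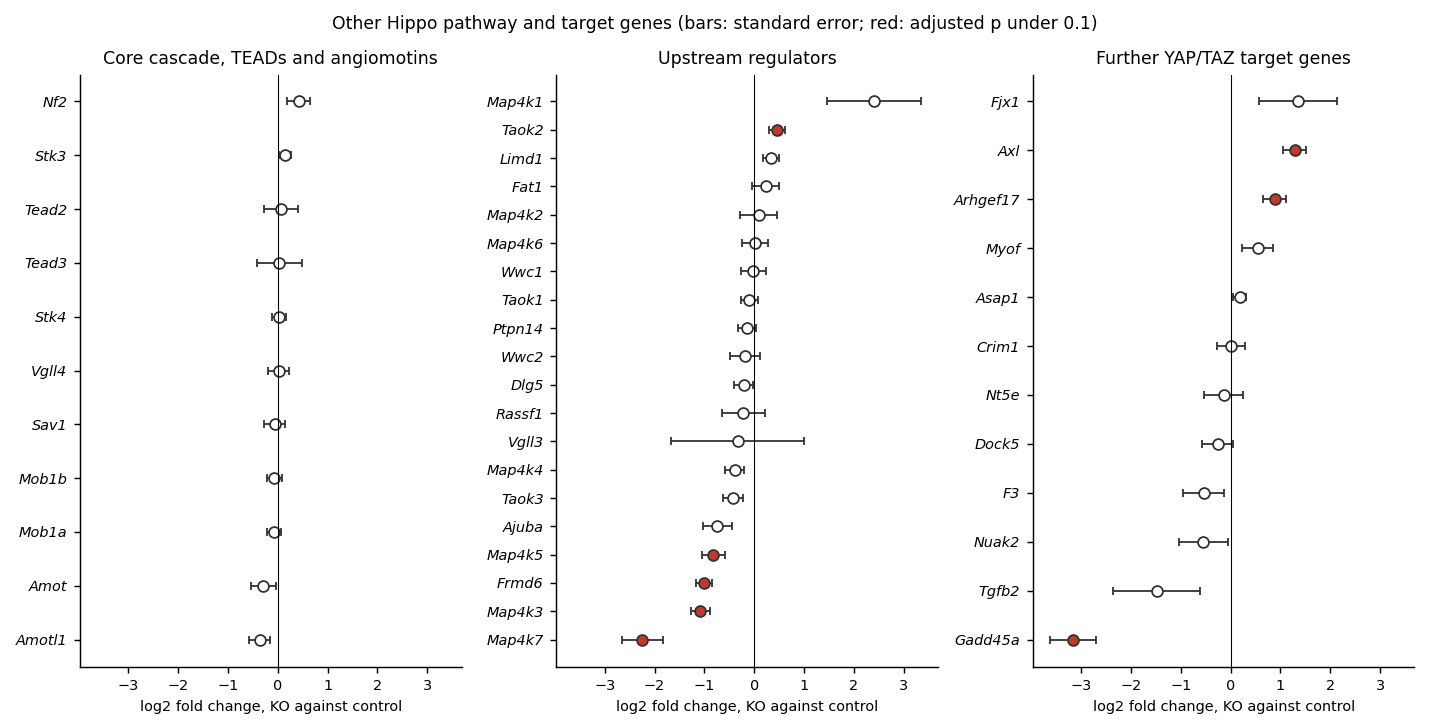
Log2 fold changes of KO against control (x axis; bars: standard error) for the other 43 tested pathway and target genes, red where the adjusted p was under 0.1. The core panel has no red point and keeps within 0.42 of 0, and the red points of the upstream panel lie mostly left of 0.

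Clone by clone, 17 of the 43 genes were called in KO1 (8 higher, 9 lower), beside 31.6% of all tested genes, and 11 in KO2 (5 higher, 6 lower), beside 31.4%. In KO1 the core had 2 calls. Nf2, which encodes the Hippo activator Merlin, was at 194 and 197 CPM in control and at 340.2, 295 and 300.1 CPM in KO1 (log2 fold change 0.67, standard error 0.18, edgeR adjusted p = 0.0250). Amotl1 was at 629.8 and 619 CPM in control and at 363, 428 and 459 CPM in KO1 (-0.58, standard error 0.20, adjusted p = 0.0629). No core gene was called in KO2 (0 at an unadjusted p under 0.05). Between the clones, Sav1 was higher in KO2 (0.48, adjusted p = 0.0459) and Nf2 lower (-0.48, adjusted p = 0.0626). Sav1 shares 1336 exonic bases with Atl1 on the opposite strand, and the sources do not say whether strand was used in counting. Calls in KO1 were lost without control replicate 1 (Nf2 0.159, Amotl1 0.266) and control replicate 2 (Nf2 0.149, Amotl1 0.233), and Amotl1 also without KO1 replicate 1 (0.165) or KO1 replicate 2 (0.128), all adjusted p. Between the clones, Sav1 was lost without KO1 replicate 1 (0.143) or KO1 replicate 2 (0.184), and Nf2 without either control (0.110 and 0.111), any KO1 replicate (0.187, 0.150 and 0.120) or KO2 replicate 1 (0.120).

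The genes whose patterns over the 9 libraries were most like those of selected members were found by the root mean square difference of centred log2 levels. For Yap1 these were Usp19 (0.0649) and Fam122a (0.0771), against a spread of 0.271 of Yap1 itself. For Wwtr1 they were Arhgef11 (0.129) and Rab33b (0.131), for Ctgf Pcyt1a (0.175) and Msra (0.177), and for Cyr61 Me1 (0.225) and B2m (0.297). For Ankrd1 the nearest were the predicted genes Gm9869 (0.206) and Gm16310 (0.209). None of these nearest genes was another of the 10. Only the 2 nearest of 15023 tested genes were kept for each, so this says nothing on whether the members vary together.

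ChIRP-seq, in which biotinylated oligos to MaTAR25 pull down the chromatin it contacts, gave a readout that the choice of the genes had not used. The authors deposited 4 peak lists called against a pulldown of Ppib RNA over pooled replicates, for an even oligo pool, an odd pool and all oligos (total) in 4T1 cells, and for all oligos in mammary tumor cells of the FVB strain called NDL. The labels describe the NDL cells as primary and give them the genotype MMTV-PyMT, whereas the study names the cell line cNeu (MMTV-Neu-NDL), so which cells these were is not settled here. By the nearest promoter given in the lists, 6 of the 10 genes had a peak in the even list, 7 in the odd list, 9 in the total list and 9 in the NDL list. The shares of all tested genes with a peak were 52.9, 52.4, 59.6 and 58.0%. Counting peaks inside a gene or within 10 kb of it, 7, 7, 9 and 9 of the 10 genes had one. The shares of all tested genes were then 66.8, 67.3, 75.8 and 74.2%. Every member had a nearest-promoter peak in at least 1 list, and Tead1, Tead4, Lats1, Lats2 and Ankrd1 had one in all 4 lists. No share over all genes was computed for these 2 rules, so they show no excess of the members. The even list has 0 peaks on chromosome 3, where Wwtr1 and Cyr61 lie, so their absence from it cannot be read. With a score of at least 100, 2 of the 10 genes had a peak in the even, 4 in the odd, 3 in the total and 5 in the NDL list. The shares of all tested genes were then 18.5, 23.4, 26.1 and 22.6%. In any list, 6 genes kept such a peak, and no any-list share was computed over all genes.

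By nearest promoter, Ankrd1 had the most peaks in the even (6), total (7) and NDL (6) lists, with 1 in the odd list, where Tead1 had 5. Counting peaks inside a gene or within 10 kb of it, Ankrd1 had 1, 0, 1 and 2 in the even, odd, total and NDL lists. Tead1 had 3, 5, 8 and 7 by that count. Apart from an intronic peak about 6 kb from the start in 3 lists, all nearest-promoter peaks of Ankrd1 lay outside genes and upstream. The highest-scoring of them in the even list (chr19:36157654-36158279, score 337.7, rank 839 of 64607) lay 38.1 kb upstream. A peak at that place was also in the total list (score 189.9) and in the NDL list (score 216.6), but the odd list assigned none there to Ankrd1. Lats2 had an intronic peak in the odd list (chr14:57702784-57704287, score 432.8, rank 2749 of 61311) that recurred in the total list (148.7) and the NDL list (154.8). Yap1 had an intronic peak at chr9:7951130-7951754 with a score of 424.9 in the odd list (rank 2816), with a peak at that place in the total list (70.6) and the NDL list (56.7). The even list assigned no peak at these places to Lats2 or Yap1. The total and NDL lists used the oligos of the even and odd pools together, so recurrence there is no separate check of the oligos.

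Peaks close to a start were found at 3 of the 10 genes. Tead4 had a promoter peak in the even list (51.1), the total list (83.6) and the NDL list (47.6), besides an intronic peak near 27.0 kb that was in all 4 lists with scores of 113.8 to 202.7. Ctgf had a peak at its start in the odd list (39.2) and the total list (44.3), its only peaks. Lats2 had one in the odd list (27.1) and one in the NDL list (20.1). Cyr61 had a single weak peak 5.69 kb from the start in the total list (20.4), with a peak at that place in the NDL list (20.4). Replicates were pooled by the authors, so no error can be given for these scores, and scores were compared within a list only.

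**Figure D5:**
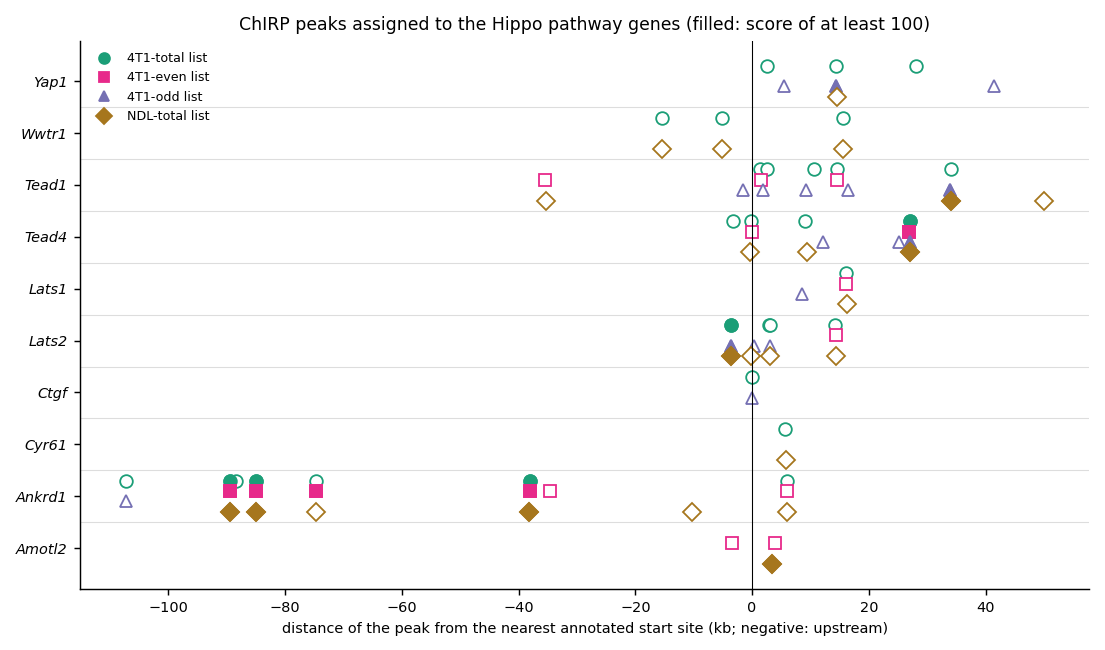
Distance of each ChIRP peak from the nearest annotated start site of the gene it was assigned to (x axis, kb, negative upstream), by gene and list (symbols), filled where the score was at least 100. Ankrd1 has the most peaks by nearest promoter, most of them 34.5 to 107 kb upstream, and Lats1, Ctgf, Cyr61 and Wwtr1 have no filled symbol.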

How the data were processed

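Polyadenylated RNA of 9 4T1 libraries was sequenced single-end. The deposited values are whole-number counts per gene, which the authors made by mapping reads to GRCm38 with STAR and counting on GENCODE vM5 with HTSeq, with no normalization. The sources used here do not say whether strand was used in counting. The library labelled KO2 replicate 2 holds 3 equal copies of every gene row, of which 1 was kept. Rows naming no gene (33.9 to 37.0% of reads) were left out. The deposited peak score of ChIRP-seq is that of HOMER, computed by the authors over pooled replicates mapped with Bowtie2.

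The tests were run with edgeR 4.0.16 in R 4.3.3 (TMM, filterByExpr, quasi-likelihood test, Benjamini-Hochberg adjustment over all 15023 genes tested, threshold 0.1 as in the study's methods, which used DESeq2, here version 1.42.0 as an alternative). Each clone against control, and KO2 against KO1, came from a 3-group model with a common estimate of the spread. The standard error was taken as the fold change over the square root of F. For single genes, log2(CPM + 1) was also submitted to an exact permutation test. The fits were tested on simulated counts. The biological coefficient of variation was 42.0% with 2 groups and 32.5% with 3. In bulk RNA, fewer cells with a message and less message per cell cannot be told apart.

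The members and lists were chosen with earlier results of these data known. Named were all members, the core and remaining TEAD genes and, of upstream regulators and further targets, those called in KO against control, at most the 3 largest rises and the 3 largest falls of each list. Same-numbered libraries of different groups deviated from their group means with correlations of -0.196 to 0.0558 in 7 pairs, so the numbers were not taken as pairing them. Alternatives were DESeq2, RLE size factors, other filters on low counts, a threshold of 0.05, the replicate number as a block, other samples in the fit and leaving out each library. Promoter windows came from RefSeq (GRCm38.p6), gene positions from GENCODE vM21. Tables and figures were made in Python 3.11.15 with numpy 2.4.6, pandas 2.3.3 and matplotlib 3.10.9.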

Additional observations from a re-analysis of the deposited data

Results flagged for a closer look

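Yap1 in KO2 replicate 3, at 125 CPM, lay far below the other 6 KO libraries, which ran from 203 to 225 CPM. Its gap to the nearest of them was 0.783 of the whole range, above Dixon's critical value for 7 libraries. Chance exceeds that critical value, which is smaller than this gap, in about 1 of 20 groups, and 20 groups were tested here. The 7 libraries pool both clones, which the critical value does not take into account. The same library was the lowest of KO2 for 7 of the 10 genes. Its part in the results was measured by leaving it out, which called Yap1 in KO against control (log2 fold change 0.42, edgeR adjusted p = 0.0478).

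The clones differed from each other, by the test of KO2 against KO1, in 4 of the 10 genes. The log2 fold change was 0.55 for Wwtr1 (0.5467), 0.55 for Tead4 (0.5522), 1.31 for Lats2 and 1.00 for Ankrd1. The first 3 were lower in KO1 than in control, and Ankrd1 was higher in KO2 than in control.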

How the results depend on the processing

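DESeq2 and RLE size factors called the same members as the main test in every comparison. The count of members called in KO against control was 0, and 2 in the 3-group fit (Tead4 and Wwtr1), which called 4970 of 15023 genes. In KO1 it was 3, and 5 with only the groups compared (adding Cyr61 and Yap1), a fit that called 7752 of 14342 genes. In KO2 it was 1, and 0 with the replicate number as a block (Ankrd1, adjusted p = 0.138). In KO2 against KO1 it was 4, 2 at a threshold of 0.05 (Ankrd1 and Lats2) and 1 with the block (Lats2). The block left 2 calls in KO1 (Lats2 was lost, adjusted p = 0.122), 0 in KO. Tead4 in KO2 against KO1 was lost without a filter on low counts (adjusted p = 0.126) and Wwtr1 with only the groups compared (adjusted p = 0.121). Of the other listed genes called in KO1, 17 became 9 at a threshold of 0.05. Peaks with a score of at least 100 left 6 members with a peak in any list, from 10, and no any-list share was computed over all genes. In single lists 2 (even), 4 (odd), 3 (total) and 5 (NDL) of the 10 members had such a peak. The shares of all tested genes were 18.5, 23.4, 26.1 and 22.6% in the same order. The cause of these changes was not tested.

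Leaving out each library in turn gave 0 to 2 members called in KO, 0 to 4 in KO1, 0 to 3 in KO2 and 0 to 5 between the clones, and 3 to 11, 6 to 20, 5 to 15 and 3 to 14 other listed genes. The 4 members in KO1 came without KO2 replicate 3, where 5403 of 14828 genes were called. The 2 in KO came from the same setting, with 3311 of 14828 genes called. Leaving out a control left 1 control library, and calls over all genes also fell in KO and in KO1. Members without overlap of KO and control ranged from 0 to 3, and no share over all genes was computed for these settings. The direction changed in values that were not called. With the block, Amotl2 was at 0.0732 in KO, 0.0329 in KO1 and 0.10 in KO2, Ctgf at -0.0535 in KO2 and Cyr61 at -0.0909 between the clones. Lats1 between the clones was at 0.0443 with the block, 0.0138 with at least 10 counts in every library and 0.0021 with only the groups compared. Leaving out a library gave ranges of -0.19 to 0.10 for Ctgf in KO, -0.36 to 0.0216 in KO1 and -0.18 to 0.20 in KO2, -0.24 to 0.18 for Ankrd1 in KO1, -0.37 to 0.0649 for Tead4 in KO2 and -0.21 to 0.19 for Amotl2 in KO2. Between the clones they were -0.20 to 0.0227 for Tead1, -0.0854 to 0.0742 for Lats1 and -0.26 to 0.43 for Cyr61.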
